A study of Arabidopsis thaliana with 6 samples.

Results

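The 4 LNK genes of Arabidopsis thaliana, LNK1 (AT5G64170), LNK2 (AT3G54500), LNK3 (AT3G12320) and LNK4 (AT5G06980), were followed in whole seedlings of the Col-0 wild type and of the toc1-21 prr5-1 double mutant. They were chosen by a list of loci and not by a cut on their values, but with earlier results of these data known. All 4 were found among the 33602 loci of the deposited files. Each genotype had 3 libraries, biological replicates by the series' design text, made from seedlings harvested at an age of 10 days at ZT15, which is 15 h after lights on. The plants were kept in long days (22 °C), and the medium was MS plus 3% sucrose. The mutant label marks both alleles as homozygous. The labels describe 1 mutant line at 1 time point, do not state the accession background of that line, and do not say how the replicates were grown apart, so the spread behind each p-value may be technical.

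LNK stands for NIGHT LIGHT-INDUCIBLE AND CLOCK-REGULATED. LNK proteins are transcriptional coactivators that do not bind DNA themselves; they are brought to promoters by MYB-like factors of the REVEILLE family, chiefly RVE8 and RVE4, and help to switch on genes of the afternoon and evening. Their own transcripts normally peak in the morning and are low by night. TOC1 and PRR5, the genes mutated here, encode pseudo-response regulators that act as transcriptional repressors later in the day, so the comparison asks what the LNK genes do in the evening when both repressors are mutated.

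All 4 LNK transcripts were low in Col-0 at ZT15 and were several times higher in the double mutant, by 6.43-fold for LNK1, 7.54-fold for LNK2, 6.43-fold for LNK3 and 8.37-fold for LNK4 (ratios of mean RPKM, reads divided by gene length in kilobases and by library depth). Every mutant library stood above every Col-0 library for each of the 4 genes. The same held for 10.4% of the genes with a value above 0 in any library. Summed over the family, the level was 1.71 ± 0.362 RPKM in the wild type and 12.5 ± 1.35 RPKM in the mutant, a ratio of 7.29. Here and in what follows, a value after ± is the SD over the 3 libraries of a genotype (n = 3).

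The 250 bases before each annotated gene start are given here because the 4 genes moved together and the mutated genes encode repressors that act at promoters. Sequences are 5′ to 3′ on the strand of the gene, read from the RefSeq copy of the TAIR10.1 genome, and all matches to the motifs searched are in capitals: the G-box CACGTG, which is a known binding motif of several light-signalling factors and is enriched at pseudo-response regulator targets, the ACGT core that it contains, the evening element AAAATATCT with its core AATATCT, and the CCA1-binding site AAAAATCT. Both strands were searched, and a G-box always overlaps an ACGT core.

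LNK1, chr5:25676824-25677073, minus strand: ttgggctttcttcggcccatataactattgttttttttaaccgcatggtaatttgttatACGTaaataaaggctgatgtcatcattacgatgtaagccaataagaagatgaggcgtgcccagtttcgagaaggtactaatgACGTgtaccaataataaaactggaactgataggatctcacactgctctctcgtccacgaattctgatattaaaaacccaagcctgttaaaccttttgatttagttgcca
LNK2, chr3:20179071-20179320, minus strand: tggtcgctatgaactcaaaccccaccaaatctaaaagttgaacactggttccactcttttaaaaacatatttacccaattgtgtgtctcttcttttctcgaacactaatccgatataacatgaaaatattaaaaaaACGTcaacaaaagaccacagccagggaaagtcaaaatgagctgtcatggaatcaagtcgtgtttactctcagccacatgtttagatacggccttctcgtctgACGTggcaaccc
LNK3, chr3:3923265-3923514, plus strand: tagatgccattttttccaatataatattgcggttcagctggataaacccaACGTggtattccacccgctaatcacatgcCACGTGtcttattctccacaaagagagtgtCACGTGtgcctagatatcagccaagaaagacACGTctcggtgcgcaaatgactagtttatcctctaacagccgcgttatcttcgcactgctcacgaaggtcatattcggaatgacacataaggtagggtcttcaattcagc
LNK4, chr5:2166870-2167119, plus strand: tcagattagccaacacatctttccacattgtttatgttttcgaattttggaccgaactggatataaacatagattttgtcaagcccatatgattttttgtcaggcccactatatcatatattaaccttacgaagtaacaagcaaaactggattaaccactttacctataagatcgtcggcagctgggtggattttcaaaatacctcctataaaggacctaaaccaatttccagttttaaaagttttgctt

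The 4 windows did not share a motif from this set. LNK3 held 2 G-boxes, a motif present in 6.49% of the 27443 protein-coding windows of the same length. LNK1 and LNK2 held 2 ACGT cores each and LNK3 held 4, counting those inside its G-boxes, while LNK4 held none; at least 1 ACGT core was found in 44.1% of all windows. In LNK3 the 4 cores began 200, 170, 140 and 110 bases before the gene start, so that consecutive cores were 30 bases apart. The evening element (in 2.36% of windows), its core (10.0%) and the CCA1-binding site (6.69%) matched in 0 of the 4 LNK windows. A match is a run of letters and not a bound site, and its absence holds for these windows alone. In 1000 bases, a length tried after the shorter windows were seen, the G-box was again found in LNK3 alone, against 14.8% of all windows, and LNK4 still held 0 ACGT cores, against 85.0% of windows with at least 1. LNK3 now also held 1 evening element core, a motif in 31.5% of these windows, while the full evening element and the CCA1-binding site again matched in 0 of 4.

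**Figure D1:**
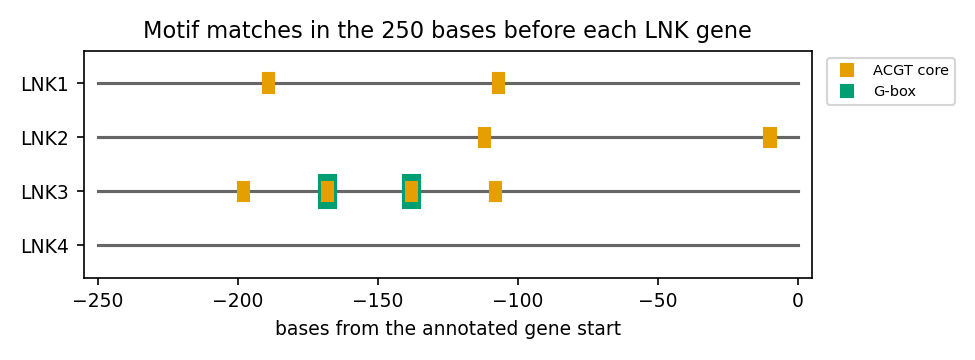
Motif matches in the 250 bases before each LNK gene, by distance from the annotated gene start in bases; green boxes are G-boxes and orange boxes are ACGT cores. LNK3 holds 2 G-boxes and 4 evenly placed cores, LNK1 and LNK2 hold 2 cores each, and LNK4 holds 0.

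LNK2, with LNK1 the long form of the family and a partner of RVE8, was the most abundant member. It stood at 0.840, 0.691 and 1.45 RPKM in Col-0 replicates 1 to 3 and at 7.52, 6.83 and 8.11 RPKM in mutant replicates 1 to 3. Col-0 replicate 3 was the highest of the wild-type libraries and still lay far below the lowest mutant library. The means were 0.994 ± 0.402 and 7.49 ± 0.637 RPKM, with a log2 fold change of 2.11 on the log2(RPKM + 1) scale (SE 0.167, limma adjusted p = 3.16e-05 among genes past a filter on level, and 0.000489 with no filter). That scale understates changes of low genes. On the reads themselves, with limma-voom, the log2 fold change was 2.90 both with the filter (SE 0.248, adjusted p = 4.89e-06) and without it (SE 0.246, adjusted p = 4.19e-05).

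LNK3, one of the 2 short members, stood at 0.506, 0.456 and 0.333 RPKM in Col-0 replicates 1 to 3 and at 2.14, 2.82 and 3.37 RPKM in mutant replicates 1 to 3. The wild-type libraries were close together, and the spread was wider in the mutant, where replicate 1 was lowest. Its mean rose from 0.432 ± 0.0887 RPKM to 2.78 ± 0.619 RPKM, with a log2 fold change of 1.39 on the log2(RPKM + 1) scale (SE 0.141, limma with no filter, adjusted p = 0.00141) and of 2.64 on reads (SE 0.378, limma-voom with no filter, adjusted p = 0.00132). Among filtered genes, which LNK3 joined through its mutant libraries alone, the limma adjusted p was 0.000711.

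LNK4, the closest relative of LNK3, stood at 0.200, 0.225 and 0.132 RPKM in Col-0 replicates 1 to 3 and at 1.23, 1.42 and 2.01 RPKM in mutant replicates 1 to 3. As for LNK3, Col-0 replicate 3 was the lowest library and mutant replicate 3 the highest. LNK4 rose from 0.186 ± 0.0484 to 1.55 ± 0.408 RPKM, with a log2 fold change of 1.10 on the log2(RPKM + 1) scale (SE 0.123, limma with no filter, adjusted p = 0.00226) and of 2.94 on reads (SE 0.436, limma-voom with no filter, adjusted p = 0.00167). LNK4 too was among the filtered genes through its mutant libraries alone (limma adjusted p = 0.00418 there).

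LNK1, the other long member, was the least abundant, at 0.0792, 0.0238 and 0.192 RPKM in Col-0 replicates 1 to 3 and 0.614, 0.778 and 0.503 RPKM in mutant replicates 1 to 3. Its mutant libraries lay above all wild-type libraries, but Col-0 replicate 3 was well above the other two. The means were 0.0982 ± 0.0854 and 0.632 ± 0.138 RPKM. These values rest on 3, 1 and 11 reads in Col-0 and 33, 54 and 26 reads in the mutant, and the ratio of the pooled rates was 5.92, with an exact (Clopper-Pearson) 95% interval of 3.44 to 10.9 that covers counting error only. Without Col-0 replicate 3 the ratio of mean RPKM would be 12.3 in place of 6.43.

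**Figure D2:**
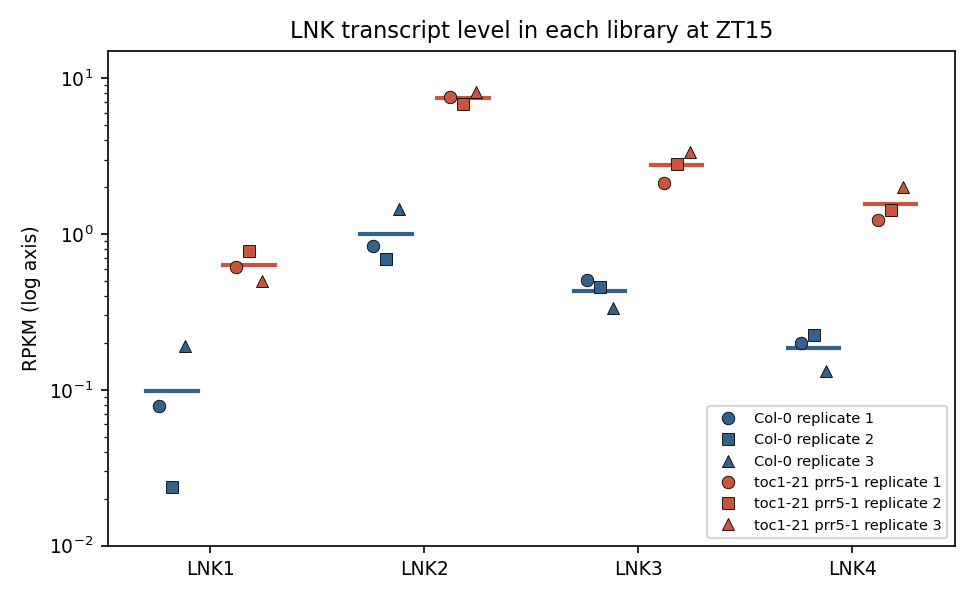
RPKM of the 4 LNK genes in each library, on a log axis; points are libraries (circle, square and triangle for replicates 1, 2 and 3), bars are genotype means, blue is Col-0 and red is toc1-21 prr5-1. The red points lie above the blue points for each gene, and LNK1 has the widest spread in Col-0.

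The tests need the filter on level to be kept in view. Genes entered the test if at least 3 libraries reached 1 RPKM, which left 19710 genes, of which 10.6% were called in either direction, 3.90% as higher and 6.65% as lower in the mutant. LNK1 reached 1 RPKM in 0 libraries and was not tested. LNK3 and LNK4 passed through the 3 mutant libraries alone, and LNK2 through these and Col-0 replicate 3, so the filter itself favoured a difference, and neither their filtered p-values nor a count over the genes that passed is support.

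The fit without a filter, over the 25139 genes with a value above 0 in any library, therefore carries the result for the whole family. There all 4 LNK genes were higher by limma, against a background of 2.80% of genes called higher, 4.81% called lower and 7.61% called in all. With limma-voom on reads, which also called all 4 LNK genes higher, the background was 3.25% higher, 5.68% lower and 8.92% in all. At a pseudocount of 0.1 RPKM with no filter it was 2.96%, 5.03% and 7.98%. LNK1 had a log2 fold change of 0.57 on the log2(RPKM + 1) scale (SE 0.0924, limma adjusted p = 0.0114) and of 2.83 on reads (SE 0.558, limma-voom adjusted p = 0.00937). Every mutant library stood above every Col-0 library, as for the 4 LNK genes, in 10.4% of these genes (11.6% of the filtered ones). With limma-voom on reads 0.529% of genes were called with a log2 fold change of at least 2, and the 4 LNK genes were among them, at ranks 79 (LNK4), 81 (LNK2), 85 (LNK1) and 101 (LNK3) by fold change. The median log2 fold change over the family was 1.24 on the log2(RPKM + 1) scale, beside -0.01 over all genes in the same fit. LNK1 no longer passed in this fit when a single library was left out in 3 of 6 cases: Col-0 replicate 1 (limma adjusted p = 0.0691), or from the mutant replicate 1 (0.0666) or 2 (0.0542).

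**Figure D3:**
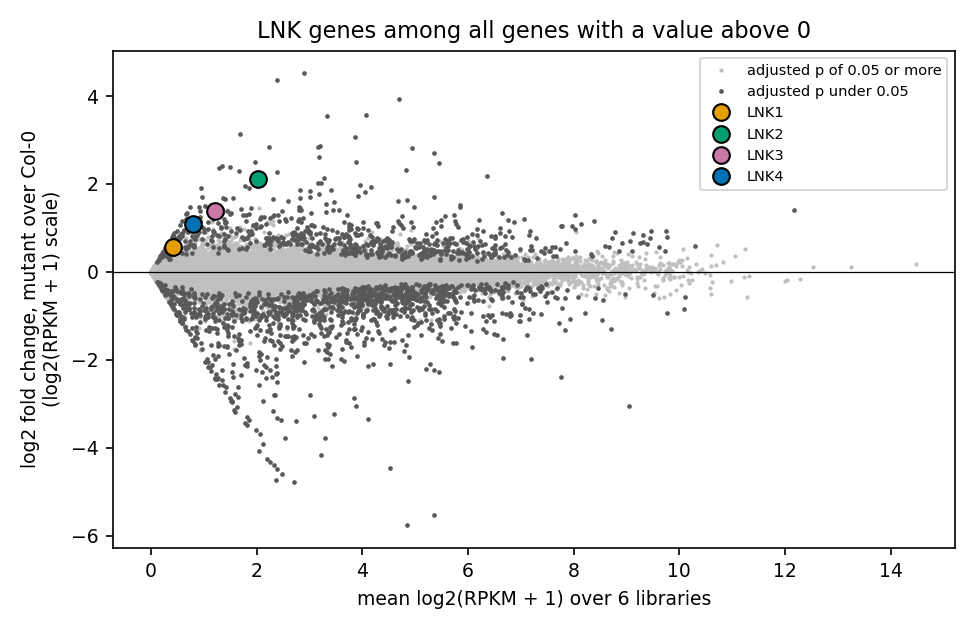
Log2 fold change (mutant over Col-0, log2(RPKM + 1) scale) against mean log2(RPKM + 1) over the 6 libraries for the 25139 genes with a value above 0; dark points have an adjusted p under 0.05 in the limma fit with no filter. The 4 LNK genes lie in the upper part of the cloud at low levels, below some other genes of like level, with LNK2 the highest of the 4 at 2.11.

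The order of levels was the same in both genotypes: LNK2, then LNK3, LNK4 and LNK1. RPKM is per length, so the levels can be set side by side. In the mutant no 2 neighbours in this order overlapped in their library values. In Col-0 LNK4 (0.132 to 0.225 RPKM) and LNK1 (0.0238 to 0.192 RPKM) overlapped, while LNK2 against LNK3 and LNK3 against LNK4 did not.

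The makeup of the family was close between the genotypes in its means. LNK2 took 56.7 ± 10.6% of the summed LNK RPKM in Col-0 and 60.3 ± 4.37% in the mutant. LNK3 took 26.5 ± 9.31% and 22.2 ± 3.10%, LNK4 11.6 ± 4.98% and 12.4 ± 1.87%, and LNK1 5.23 ± 3.71% and 5.17 ± 1.49%. The wild-type libraries varied more among themselves than the genotypes differed. Col-0 replicate 3 stood apart, with the largest shares of LNK1 (9.09%) and LNK2 (68.8%) and the smallest of LNK3 (15.8%) and LNK4 (6.26%).

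**Figure D4:**
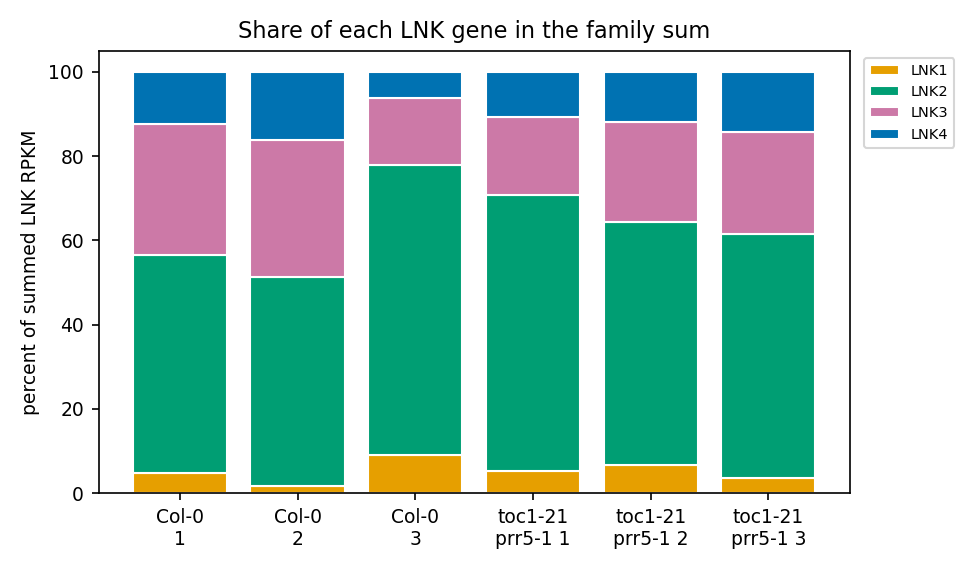
Share of each LNK gene in the summed LNK RPKM, in percent, for each of the 6 libraries. LNK2 is the largest part in each library, and Col-0 replicate 3 has the smallest shares of LNK3 and LNK4.

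Whether the members responded by different amounts was tested on the log2 ratio of 2 members within each library, over the 6 pairs. With 3 libraries against 3 the smallest p an exact permutation test can give is 0.1. For LNK3 over LNK4 the log2 ratio was 1.23 ± 0.186 in Col-0 and 0.84 ± 0.131 in the mutant, a difference of -0.39 (SE 0.131), with no overlap between the genotypes (exact two-sided permutation p = 0.1, 0.6 after Benjamini-Hochberg adjustment over the 6 pairs). The other 5 differences lay between -0.09 and 0.44, with SE of 0.519 to 1.15, and their genotypes overlapped (exact p of 0.6 to 1, each 1 after adjustment). These SE are large beside the differences, so the tests do not show equal responses.

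On TAIR10.1, LNK1 lies on chromosome 5 at 25672466 to 25676823 (minus strand), LNK2 on chromosome 3 at 20175370 to 20179070 (minus strand), LNK3 on chromosome 3 at 3923515 to 3925502 (plus strand) and LNK4 on chromosome 5 at 2167120 to 2169437 (plus strand). The longest annotated proteins have 616 (LNK1), 680 (LNK2), 269 (LNK3) and 279 (LNK4) residues. LNK3 and LNK4 shared 60.6% of 254 aligned residues, and the other pairs 28.3% or less. The longest run of identical bases between transcripts of 2 members was 24 bases, for LNK3 and LNK4, and 11 to 15 bases for the other pairs.

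Each LNK gene overlaps a neighbour in this annotation, and the counting of such reads and of strand by the authors is not stated in the sources. LNK1 shares 245 bases with AT5G64160 on the opposite strand, which was at 14.2 ± 0.804 and 13.7 ± 2.32 RPKM and missed the threshold (limma adjusted p = 0.843). LNK2 shares 93 bases with AT3G54490 on the opposite strand, at 0.147 ± 0.254 and 0.147 ± 0.0225 RPKM. It also shares 266 bases with an RNA gene on the opposite strand, AT3G08405, not analysed here. LNK3 shares 5 bases with AT3G12340, which rose from 5.69 ± 0.201 to 8.29 ± 0.733 RPKM (limma adjusted p = 0.0230), and LNK4 shares 13 bases on the same strand with AT5G06990, at 1.59 ± 0.793 and 1.53 ± 0.575 RPKM (limma adjusted p = 0.997). None of these partners with a value changed by as much as its LNK gene, and their part in the LNK values was not tested.

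Called genes were unevenly spread around the 4 loci. Among the 100 tested genes nearest to LNK1 in gene order, 50 on each side, 17 were called, and among those around LNK3 16 were called. Around LNK2 the number was 6 and around LNK4 it was 4, where 10.6% of all tested genes were called. The neighbours of LNK1 were 9 higher and 8 lower and those of LNK3 8 higher and 8 lower. Their median log2 fold changes were -0.03 and -0.02. Of the nearest tested genes, AT5G64180 beside LNK1 was higher (log2 fold change 0.38, limma adjusted p = 0.0469), as was AT3G12340 beside LNK3, described above. By locus number the mutated genes TOC1 (AT5G61380) and PRR5 (AT5G24470) lie on chromosome 5, as LNK1 and LNK4 do. Of the LNK genes, LNK1 (AT5G64170) is the nearest to TOC1 in locus number. The part of nearness to a mutated gene in these counts and in the LNK1 value was not tested.

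The MYB-like partners of the LNK proteins were higher or did not pass. RVE8 stood at 2.69, 2.47 and 2.91 RPKM in Col-0 replicates 1 to 3 and at 13.1, 11.2 and 13.0 RPKM in mutant replicates 1 to 3, without overlap. It rose from 2.69 ± 0.221 to 12.4 ± 1.06 RPKM (log2 fold change 1.86, limma adjusted p = 6.94e-06). RVE4, the second main partner, rose 1.60-fold, from 37.5 ± 2.24 to 59.9 ± 3.54 RPKM (limma adjusted p = 0.000719). RVE6, of the same clade, was at 7.40 ± 0.479 and 7.91 ± 1.26 RPKM and missed the threshold (limma adjusted p = 0.809). The LNK family sum was therefore below the RVE8 level in Col-0 and about equal to it in the mutant, at 1.71 against 2.69 RPKM and 12.5 against 12.4 RPKM. This near equality held for RVE8 alone. The family sum was below RVE4 in both genotypes, and below RVE6 in Col-0 but above it in the mutant.

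LHY and CCA1, morning MYB repressors of the core loop, were also higher. LHY went from 0.740 ± 0.0788 to 5.74 ± 0.264 RPKM, a 7.76-fold rise that lay within the range of the LNK genes (limma with no filter, adjusted p = 0.000105). It passed the filter through the mutant libraries alone, and its filtered adjusted p was 1.22e-05. CCA1, under the filter, was at 0.0971 ± 0.0503 and 0.880 ± 0.136 RPKM, 9.06-fold higher (limma with no filter, adjusted p = 0.00173). RVE1, which links the clock to auxin, rose 3.40-fold to 18.4 ± 1.89 RPKM. This list and those that follow were chosen with earlier results of these data known, so their counts are description and not support. Of the 10 CCA1, LHY and REVEILLE genes 8 passed the filter, of which 4 were higher, 0 lower and 4 did not pass. With no filter 6 of 10 were higher and 0 lower. Over all genes 3.90% were higher and 6.65% lower with the filter, and 2.80% and 4.81% without it. The median log2 fold change was 0.53 over the 8 and 0.68 over the 10, beside -0.01 over all genes in either fit.

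The genes of the afternoon and evening clock list, some of which the LNK proteins with RVE8 help to activate, went both ways. The mutated genes come first: TOC1 was at 32.0 to 34.9 RPKM in Col-0 and 14.8 to 18.6 RPKM in the mutant, and PRR5 at 2.88 to 3.01 and 0.926 to 1.35 RPKM. Both were lower in every mutant library, and reads of both remained. ELF4, an evening complex subunit and RVE8 target, fell from 80.0 ± 8.94 to 38.2 ± 3.16 RPKM (log2 fold change -1.05, limma adjusted p = 0.000129). BOA, a relative of the evening complex factor LUX, fell from 19.8 ± 1.83 to 11.3 ± 1.09 RPKM (limma adjusted p = 0.00146). The pseudo-response regulator PRR7, which peaks before PRR5, rose 4.94-fold, from 0.492 ± 0.0708 to 2.43 ± 0.252 RPKM (limma with no filter, adjusted p = 0.000650), and PRR3 rose 2.33-fold. PRR7 passed the filter through the mutant libraries alone, with an adjusted p of 0.000851 there. Of 12 genes 10 passed the filter, with 2 higher, 6 lower (2 of them mutated here) and 2 not passing. With no filter 2 of 12 were higher and 6 lower. The number lower was 5 of 10 with size factors, with quantile normalization, with the replicate block and in 5 of the 6 fits that left out a library. The median log2 fold change was -0.57 over the 10 and -0.34 over the 12, beside -0.01 over all genes in either fit. The shares over all genes were 3.90% higher and 6.65% lower with the filter, and 2.80% and 4.81% without it. GI was below the filter, at 0.272 ± 0.0183 and 0.642 ± 0.227 RPKM, and did not pass without it (limma adjusted p = 0.101).

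LNK1 and LNK2 are also known to act with MYB3, a repressor of phenylpropanoid genes, as corepressors of anthocyanin synthesis. MYB3, named here as their partner after its values were seen, rose from 21.1 ± 2.68 to 29.6 ± 1.54 RPKM (limma adjusted p = 0.0183), a call lost without mutant replicate 2 and without mutant replicate 3. C4H, a direct target of MYB3, was at 114.9 ± 20.1 and 114.9 ± 4.70 RPKM and missed the threshold (limma adjusted p = 0.968). Later enzymes were lower: F3H, an early flavonoid hydroxylase, averaged 18.4 ± 3.49 RPKM in the wild type and 6.20 ± 0.394 RPKM in the mutant (limma adjusted p = 0.000108), and FLS1, the flavonol synthase, 21.6 ± 1.84 and 8.35 ± 2.21 RPKM (limma adjusted p = 0.000795). All 12 genes of this list, also chosen with earlier results known, were tested: 8 were lower, MYB3 was the 1 that was higher, and 3 did not pass. Their median log2 fold change was -0.95, beside -0.01 over all tested genes. UF3GT, 1 of the 8 lower genes, passed the filter through its Col-0 libraries alone. With no filter the counts were the same, and UF3GT had a limma adjusted p of 0.0236. Over all genes 6.65% were lower and 3.90% higher with the filter, and 4.81% and 2.80% without it.

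In the list of PIF and flowering genes, lnk mutants being known for long hypocotyls and late flowering, PIF4, PIF5 and CDF1 rose and CO did not pass, so that 3 of 4 tested genes were higher and 0 lower (median log2 fold change 1.25, and 1.20 over all 5 with no filter, beside -0.01 over all genes in either fit). With no filter 3 of 5 were higher and 0 lower. Over all genes 3.90% were higher with the filter and 2.80% without it. CDF1, a repressor of CO transcription, went from 0.838 ± 0.555 to 3.46 ± 0.548 RPKM (limma adjusted p = 0.00361, and 0.0122 with no filter). CDF1 passed the filter through its mutant libraries and Col-0 replicate 1. PIF5 rose 3.86-fold and PIF4 3.01-fold. CO, the photoperiodic flowering activator, was at 2.63 ± 0.689 and 2.20 ± 0.175 RPKM (limma adjusted p = 0.672), and FT, its target, was below the filter.

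**Figure D5:**
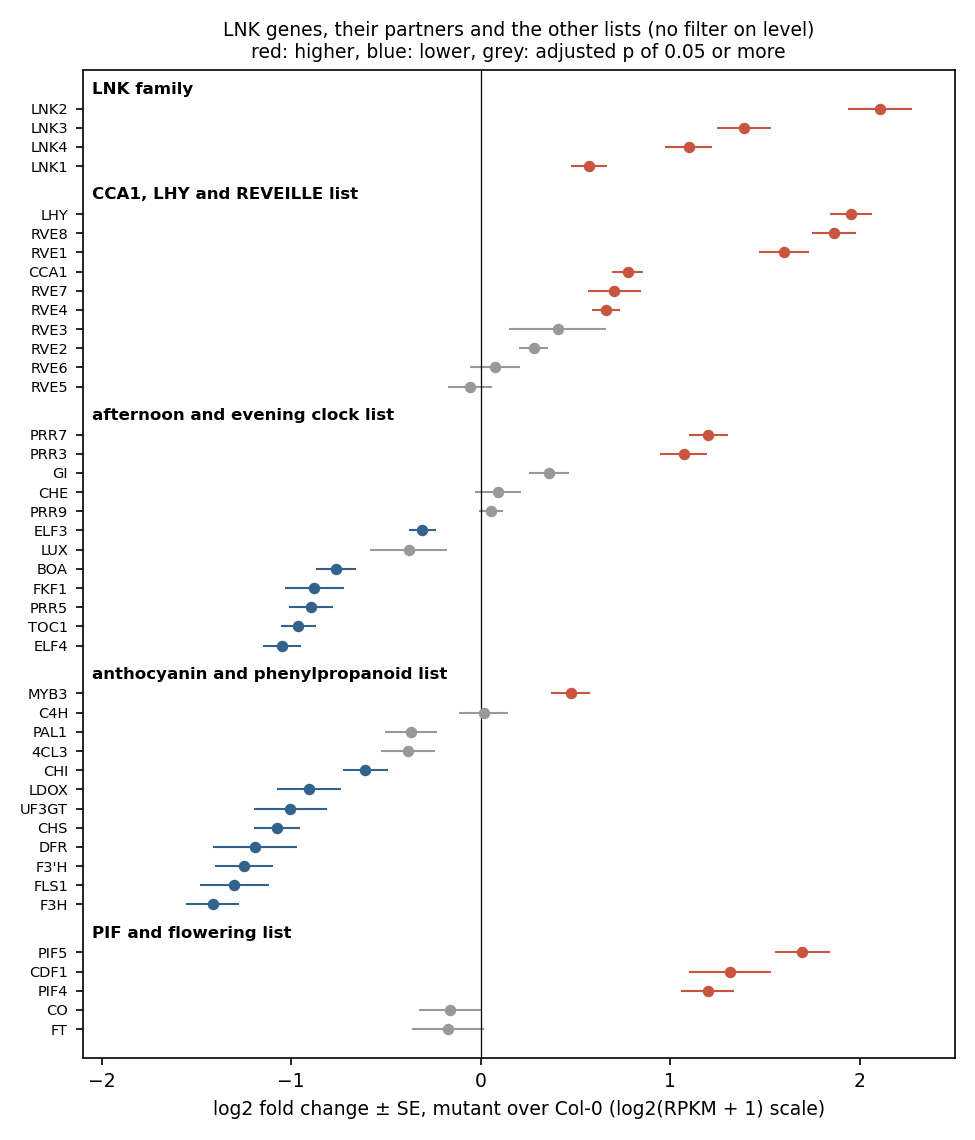
Log2 fold change ± SE (mutant over Col-0, log2(RPKM + 1) scale) of the LNK genes and the genes of 4 related lists, from the limma fit with no filter; red is higher, blue is lower and grey did not pass. The LNK genes and the called CCA1, LHY and REVEILLE genes lie to the right of 0, while most called evening and anthocyanin genes lie to the left.

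Genes with a library pattern most like a LNK gene were taken from the 18030 other tested genes with a mean of at least 2 RPKM, by the mean absolute difference of their deviations from the Col-0 mean on the log2(RPKM + 1) scale over the 6 libraries. Such likeness rests mainly on the size of the genotype difference on that scale, which understates changes of low genes. A gene named here therefore need not share the RPKM ratio of its LNK gene. Nearest to LNK2 were AT2G40960 (difference 0.0752), AT1G09421 (0.136) and GUN5 (0.149), the large subunit of Mg-chelatase in chlorophyll synthesis, which stood at 37.7 ± 2.52 and 175.9 ± 10.9 RPKM. AT2G40960 shared with LNK2 the high value in Col-0 replicate 3, at 6.10, 5.84 and 8.79 RPKM in Col-0 replicates 1 to 3 and 29.5, 29.8 and 30.2 RPKM in mutant replicates 1 to 3. Nearest to LNK3 were NIP6;1, a membrane channel of boron transport (0.0555), LHCB1.3 of the light-harvesting antenna (0.0844; uncertain, since it has near-identical copies) and PES2, a phytyl ester synthase (0.0876). Nearest to LNK4 were UGT87A2, a glycosyltransferase (0.0822), LHCA4, an antenna protein of photosystem I (0.0830), and AT5G10625 (0.0896). NIP6;1 stood at 3.28 ± 0.261 and 10.3 ± 1.21 RPKM, a smaller rise in ratio than that of LNK3. UGT87A2 stood at 16.7 ± 1.24 and 37.5 ± 2.61 RPKM, a smaller rise in ratio than that of LNK4.

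The libraries rested on 14617043 to 22173648 reads in Col-0 and 19956080 to 26792712 in the mutant. For the LNK genes this gave 31 to 507 reads for LNK2, 9 to 92 for LNK3, 4 to 55 for LNK4 and 1 to 54 for LNK1 in a library, so the wild-type levels of the last 3 are known with little precision. Of 22 marker genes of shoot, root hair, endodermis, companion cells, shoot meristem and seed, 2 were higher (RCA and STM), 3 lower (the seed genes CRA1, CRC and OLEO1) and 17 did not pass. Over all tested genes 3.90% were higher and 6.65% lower. With no filter 0 markers were higher, RCA (limma adjusted p = 0.172) and STM (0.0891) no longer passing. None of these genes was at 0 in any library. Summed seed markers were at 585.6 to 738.4 RPKM in Col-0 and 288.9 to 347.0 RPKM in the mutant, and summed meristem markers at 11.8 to 14.6 and 16.5 to 18.5 RPKM. The other 4 sums overlapped between genotypes. In whole seedlings fewer cells of a type and less RNA per cell cannot be told apart, and the part of these markers in the LNK result was not tested.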

How the data were processed

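The authors deposited 1 table of RPKM values for each library, per the file headers. The submitters' processing notes name the TAIR10 build and the tools TopHat, TopHat2 and edgeR, with no roles; how reads were counted, whether strand was used, and how multi-mapping reads were handled is not stated in the sources. The library kit was directional, per the labels' protocols. RPKM was tested as log2(RPKM + 1) with limma 3.58.1 (R 4.3.3, mean-variance trend, genotype as the only term) on genes reaching 1 RPKM in 3 or more libraries, adjusted by Benjamini-Hochberg over all tested genes and called under 0.05.

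Depths and whole reads were recovered from the steps of the RPKM values: a length that made the 6 values whole to within 0.001 reads existed for 25139 of 25139 genes above 0. These reads entered limma-voom. The smallest such length was taken (2590 bases for LNK1, 2769 for LNK2, 1218 for LNK3, 1369 for LNK4). The unfiltered voom fit, the unfiltered fit at a pseudocount of 0.1 and the unfiltered fits on LNK1 that left out a library or added the block were chosen after its low level was seen.

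Gene models, promoters and proteins (translated from the annotated coding sequence, aligned with BLOSUM62) came from TAIR10.1, where 97.7% of loci were found; the deposited tables have no coordinates. RefSeq promoter and protein tables were not used here, and no residues are printed. Named genes were the LNK, mutated, RVE4, RVE6, RVE8, CCA1 and LHY genes, up to 4 called genes of each list, the genes most like a called LNK gene with a log2 fold change of at least 1 (3 each), and list members named as not passing. Genes that overlap or lie nearest to a LNK gene were added after the annotation was read. Members and lists were chosen with earlier results of these data known.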

Additional observations from a re-analysis of the deposited data

How the results depend on the processing

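LNK2 kept its direction and call in the 16 other settings that tested it (adjusted p from 4.89e-06 with limma-voom to 0.000535 with limma). LNK3 (0.000668 to 0.00599, both with limma) and LNK4 (0.00148 with limma-voom to 0.0221 with limma) kept theirs in 15. Most of these fits were among the filtered genes, where the filter itself favoured a difference, so those calls are not support. Fits with no filter that left out a library were made for LNK1 alone. A filter at 5 RPKM left out LNK1, LNK3 and LNK4. The size of a log2 fold change depends on the pseudocount at these low levels: LNK1, with 0.57, had 1.96 at a pseudocount of 0.1 RPKM and 0.14 at 5 RPKM, both without a test. LNK1 became testable and was called with no filter (0.57), with no filter and a pseudocount of 0.1 (1.96), with limma-voom on reads and no filter (2.83) and with no filter and the replicate block (0.57, adjusted p = 0.0390). Leaving out 1 library gave LNK1 values of 0.51 to 0.63, and its call held in the fits with no filter that lacked Col-0 replicate 2 (0.52), Col-0 replicate 3 (0.63) or mutant replicate 3 (0.63). The count of called genes was 2080, with 1340 to 2250 when 1 library was left out, the lowest without mutant replicate 1. It was 1361 without Col-0 replicate 1 and without mutant replicate 2. The PIF and flowering list had 1 called gene at the 5 RPKM filter, where 1 gene was tested, in place of 3. The correlation between libraries with the same replicate number, after removing genotype means, was -0.03, 0.15 and 0.04. Only Col-0 replicate 2 correlated best with the mutant library of its own number. So few libraries cannot settle whether replicate numbers pair them. With the replicate block 2114 genes were called. The median log2 fold change of all tested genes was -0.01 as deposited, 0.01 with size factors and 0.03 with quantile normalization. Depth limits LNK4 and LNK1 most, with 13 and 15 reads in all of Col-0.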
